A study of Homo sapiens with 9 samples.

Results

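Interferon-stimulated genes are switched on in cells that sense a type I interferon, and 46 of them were followed here through the T47D libraries of the study. They were taken from the table by gene symbol, from a list of well-known interferon targets that leaves out the HLA and TAP genes, and all 46 were found among the 27635 symbols of the table. Of these, 44 passed a filter on low values and were tested. The other members, CMPK2, a mitochondrial nucleotide kinase, and IFI44L, a cytoplasmic interferon-induced protein, stayed between 0 and 0.994 TPM in every library.

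T47D is a human ER+ breast cancer line and HS5 is a human bone marrow stromal line used as a mesenchymal stem cell (MSC). RNA was sequenced from T47D cells grown alone (monoculture, MC), from T47D cells grown in contact with HS5 cells and then recovered on EpCAM beads (contact culture, CC), and from T47D cells grown in HS5 conditioned medium (CMed), with 3 libraries in each group and 9 in all. Contact cultures were seeded with cancer cells at 10% and MSCs at 90% according to the labels. All groups share the same course, with 24 hours in complete medium, a switch to low-glucose, phenol-red free medium holding estradiol (10 nM) and FBS (1%), and collection 48 hours later. Values are TPM, a transcript abundance whose values sum to nearly the same total in each library and are scaled for transcript length. Whether the 3 libraries of a group came from separate cultures is not stated, so p-values measure the spread between these libraries, which may be technical. In bulk RNA of this kind, fewer cells of a type and less RNA per cell cannot be told apart.

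Type I interferons bind a receptor made of IFNAR1 and IFNAR2, whose kinases JAK1 and TYK2 activate STAT proteins. STAT2 and IRF9 are parts of the factor that then binds the interferon-stimulated response element (ISRE), a repeat of GAAA, in the promoters of target genes. Interferon-gamma acts through another receptor and mainly through the gamma-activated site (GAS), and IRF1 is one of its best-known targets. Many interferon-stimulated genes answer to more than 1 class of interferon, and some also answer to other cytokines or to viral RNA, so their levels do not name a ligand.

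Promoters are shown for some of the genes whose levels carried the comparisons, all with an ISRE match except that of IRF1, which held a GAS. Promoter windows of 300 bases (250 before to 50 after the start of transcription) came from RefSeq on GRCh38.p14. Of the 46 genes, 38 were matched by symbol, DDX58 under its current name RIGI, and IRF7, IFIT2, IFITM2, OAS2, OASL, MX2, USP18 and TRIM22 were not matched. The ISRE core was searched for on both strands as GAAA, any 2 bases and GAAA again, and the GAS as TTCNNNGAA, which reads the same on both strands and can overlap an ISRE core. Of the 38 matched promoters, 22 (57.9%) held at least 1 ISRE core, against 996 of all 27305 promoters (3.65%). A GAS match was found in 10 of the 38 (26.3%) and in 7.88% of all promoters. The stretches below run 5′ to 3′ on the gene's own strand, lie upstream of the start, and carry the matches in capitals.
IFI6, chr1:27672261-27672363, minus strand, 3 ISRE cores: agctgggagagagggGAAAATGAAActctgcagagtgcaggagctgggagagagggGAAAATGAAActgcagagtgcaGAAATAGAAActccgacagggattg
IFIT1, chr10:89392492-89392544, plus strand, 2 ISRE cores: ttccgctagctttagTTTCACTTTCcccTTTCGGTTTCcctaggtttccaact
SAMD9, chr7:93118091-93118130, minus strand, 1 ISRE core: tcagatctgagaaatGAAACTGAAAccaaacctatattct
IFIT3, chr10:89327826-89327899, plus strand, 2 ISRE cores: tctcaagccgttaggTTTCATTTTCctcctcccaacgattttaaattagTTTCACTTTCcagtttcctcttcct
IFITM3, chr11:320871-320927, minus strand, 2 ISRE cores: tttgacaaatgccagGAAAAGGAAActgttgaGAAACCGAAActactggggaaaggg
ISG20, chr15:88638932-88638971, plus strand, 1 ISRE core: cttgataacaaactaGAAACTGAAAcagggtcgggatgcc
IRF1, chr5:132490874-132490912, minus strand, 1 GAS: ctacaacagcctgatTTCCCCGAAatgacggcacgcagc
IFI6, IFIT1 and SAMD9 were lower in contact culture than in monoculture, while IFITM3 and ISG20 were higher and IFIT3 was higher in conditioned medium. ISRE cores thus stood in promoters of genes that differed in both directions. IRF1, with a GAS and no ISRE core, was also higher in contact culture. The windows of OAS1, XAF1, UBE2L6, PSMB8, PSMB9, IRF1 and STAT2 held no match to the ISRE core as spelled here.

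One library touched many of the results and is described first. Monoculture replicate 2 held the highest value of its group in 38 of the 44 tested genes (86.4%), against 6592 of all 16696 genes tested (39.5%), and it was more than 2-fold above both other monoculture libraries in 15 (34.1%), against 5.07% of all genes. Its correlations with the other monoculture libraries across genes were 0.918 and 0.924, where those libraries correlated at 0.958 and the pairs within contact culture and within conditioned medium at 0.944 to 0.967. The summed level of the 46 genes was 345, 879 and 331 TPM in the monoculture libraries, 835, 632 and 706 TPM in contact culture and 1169, 1251 and 1133 TPM in conditioned medium. By this sum, in which abundant genes such as IFITM2 weigh most, conditioned medium stood above all other libraries, and monoculture replicate 2 stood at the height of contact culture. On the mean of log2(TPM + 1) over the 46 genes, monoculture replicate 2 stood at 3.17, above contact culture (2.51 to 2.71). The other monoculture libraries stood at 2.31 and 2.36 on that scale, and conditioned medium at 3.30 to 3.43. What sets that library apart was not tested, and comparisons with monoculture are given with and without it.

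A second measured fact concerns the levels of stromal marker genes. Of 29 markers of stromal cells, 28 were in the table, and their summed level was 18.6 to 20.01 TPM in monoculture, 40.7 to 47.6 TPM in contact culture and 18.7 to 19.7 TPM in conditioned medium. Of the 11 stromal markers tested, 5 rose in contact culture against monoculture (VIM, FN1, CAV1, TWIST2 and PRRX1), and none did so in conditioned medium. CAV1, TWIST2 and PRRX1 stood at 0.0917 TPM or less outside contact culture, so they passed the filter on low values through contact culture alone. For these genes the filter favoured a rise in contact culture and none in conditioned medium. Over all 28, the mean was higher in contact culture than in monoculture for 20 and lower for 8, the libraries lay wholly above monoculture for 6 (the 5 called and NT5E) and wholly below it for 2, and 26 were above 0 in at least 1 contact culture library. Many levels were low, with a mean under 0.5 TPM in contact culture for 17 of them. From monoculture to contact culture, mean levels of the 5 called markers went from 0.703 to 9.05 TPM for VIM and from 7.84 to 19.1 TPM for FN1. They went from 0 to 2.5 TPM for CAV1, from 0 to 1.53 TPM for TWIST2 and from 0.0306 to 2.82 TPM for PRRX1. Among markers not called, PDGFRA and PDGFRB were at 0 in contact culture. PDGFRA was above 0 only in monoculture replicate 3 (0.795 TPM), and PDGFRB only in monoculture replicate 1 (1.12 TPM). In contact culture COL3A1 reached 0.212 TPM and COL1A2 0.799 TPM, and DCN measured 1.75, 0 and 1.15 TPM. COL1A1 measured 2.79 to 4.26 TPM there and 2.73 to 6.29 TPM in monoculture. Which cells made the RNA of these markers was not tested, nor was the part of stromal RNA in the results below. Markers of immune cells summed to at most 0.757 TPM in any library, and 20 luminal epithelial markers summed to 2958 to 4307 TPM over all libraries. Mitochondrial and ribosomal RNA took 16.7% to 20.5% of monoculture, 23.4% to 26.1% of contact culture and 21.5% to 22.4% of conditioned medium.

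**Figure D1:**
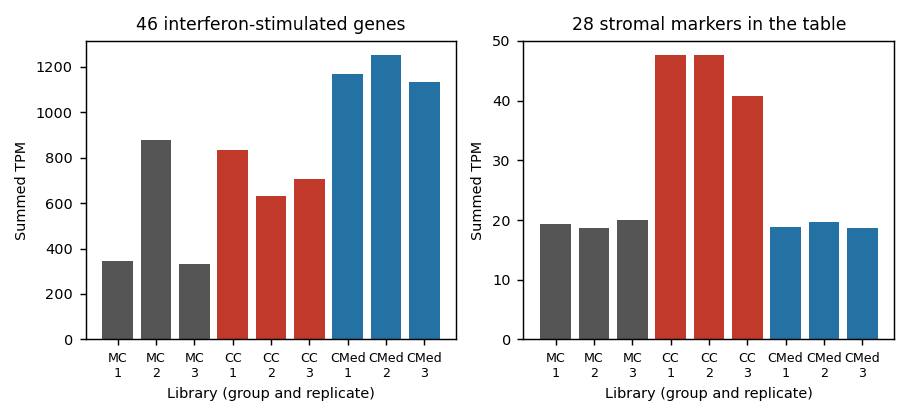
Summed TPM of the 46 interferon-stimulated genes (left) and of the 28 stromal markers in the table (right), 1 bar per library in the order monoculture (MC), contact culture (CC) and conditioned medium (CMed). The interferon-stimulated genes sum to 1133 TPM or more in the conditioned medium libraries and to 879 TPM or less elsewhere, while the stromal markers sum to 40.7 TPM or more in contact culture and to 20.01 TPM or less elsewhere.

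Levels differed widely among the genes. Mean levels of the tested genes ran from 0.684 to 83.0 TPM in monoculture, from 0.316 to 244 TPM in contact culture and from 0.182 to 379 TPM in conditioned medium, with medians of 4.62, 4.07 and 9.01 TPM. IFITM2 was the most abundant gene of the family in each group. A level of at least 10 TPM was reached by 19 genes in conditioned medium, 14 in monoculture and 13 in contact culture.

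**Figure D2:**
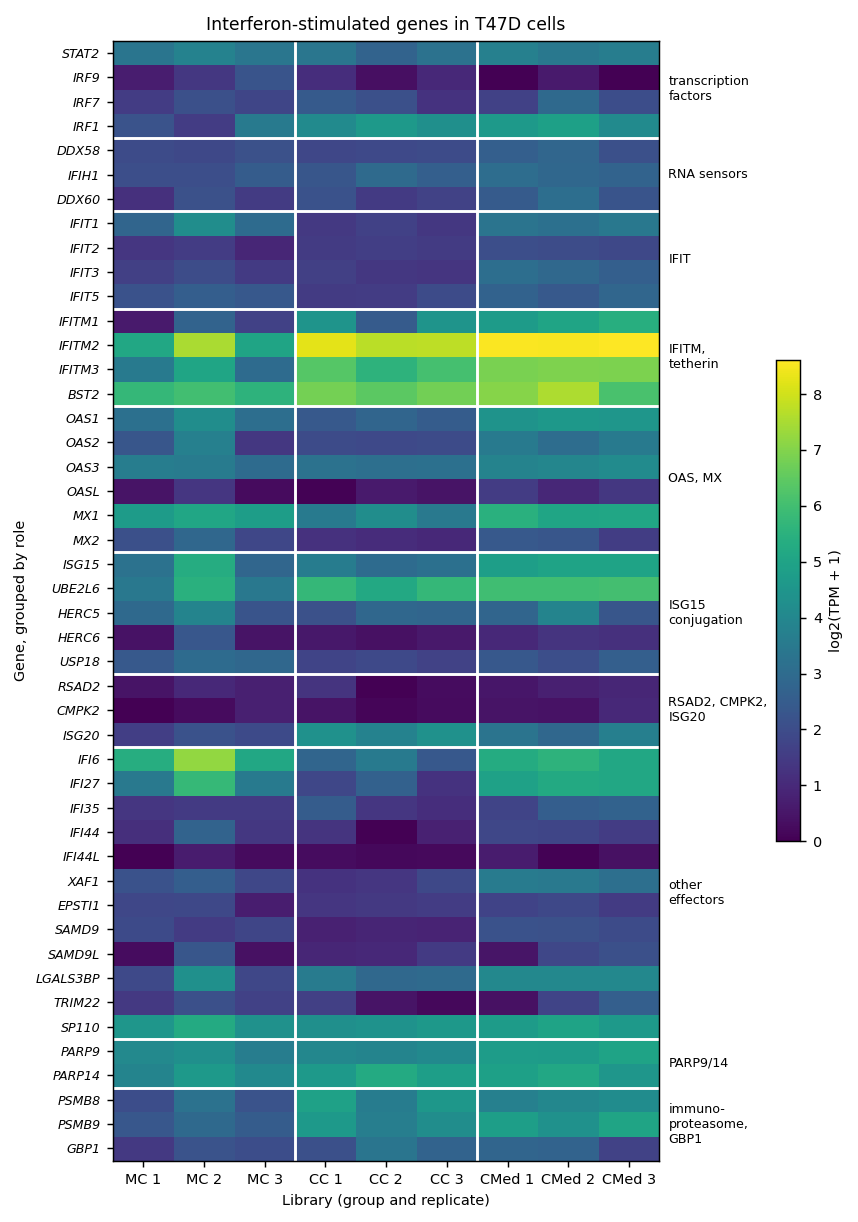
Level of each of the 46 genes in each of the 9 libraries, as log2(TPM + 1), with genes grouped by role. Columns are the libraries of monoculture (MC), contact culture (CC) and conditioned medium (CMed), and the second monoculture library shows higher values than its neighbours in many rows.

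Contact culture was compared with monoculture to ask how the genes of T47D cells differ after growth beside MSCs. The family did not move one way. IRF1, IFITM3, ISG20, PSMB8 and PSMB9 rose in contact culture, and IFIT1, MX1, USP18, IFI6 and SAMD9 fell (limma on log2(TPM + 1), Benjamini-Hochberg adjusted p under 0.05 over 16696 genes). These 5 rises and 5 falls among 44 genes stand beside 2.15% of all genes higher and 2.84% lower, or 4.99% in both directions. At an unadjusted p under 0.05, 10 genes were higher and 11 lower, where 7.94% and 12.3% of all genes were. The median log2 fold change of the family was -0.22, against -0.08 over all genes. The 3 contact culture libraries lay wholly above monoculture in 8 genes and wholly below it in 9, where 9.0% and 15.3% of all genes did so.

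The fit without monoculture replicate 2 changed these counts to 10 higher and 5 lower, beside 4.34% and 6.0% of all genes, and turned the median of the family to 0.09. IFITM1, IFITM2, UBE2L6, LGALS3BP and PARP14 then passed as higher and IFI27 as lower, while USP18 no longer passed (adjusted p = 0.0561). No overlap was then seen in 14 genes higher and 10 lower, against 17% and 26.8% of all genes. Leaving out any other library gave fewer calls, both in the family and over all genes. The family had 1 higher and 2 lower without monoculture replicate 1 (1.01% and 1.09% of all genes), 2 and 2 without monoculture replicate 3 (1.11% and 1.19%), 1 and 1 without contact culture replicate 1 (1.16% and 1.4%), 5 and 3 without contact culture replicate 2 (1.56% and 1.7%), and 1 and 0 without contact culture replicate 3 (0.833% and 0.629%). ISG20 passed in each of these fits. IFI6 was lost without contact culture replicate 3 alone, IFIT1 without contact culture replicate 1 or 3, and the other 7 genes in at least 4 of the 6 fits. Both other scalings gave 5 higher and 3 lower, beside 2.63% and 1.79% of all genes under relative log expression and 2.56% and 2.04% under upper quartile scaling.

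Culture in conditioned medium was the control for what MSCs secrete. Against monoculture, 5 of the 44 genes rose (IFIT3, IFITM1, IFITM3, ISG20 and PSMB9) and none fell, beside 0.707% and 0.677% of all genes (1.38% in both directions). At an unadjusted p under 0.05, 21 genes were higher and 1 was lower, where 5.27% and 10.4% of all genes were. The estimate was positive for 36 of the 44 genes, and the median log2 fold change was 0.63, against -0.10 over all genes. Conditioned medium lay wholly above monoculture in 19 genes and wholly below it in 1, IRF9, where 6.67% and 14.2% of all genes did so. Relative log expression scaling raised the median of all genes from -0.10 to 0.01 and that of the family to 0.75.

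Leaving out monoculture replicate 2 took the count in conditioned medium to 16 higher and none lower, beside 2.29% and 3.78% of all genes, with a median of 0.86. The genes added were IRF1, IFITM2, OAS1, OAS2, ISG15, UBE2L6, IFI27, XAF1, LGALS3BP, PARP9 and PSMB8. Wholly higher levels were then seen in 33 genes and wholly lower levels in 1, against 15.2% and 26.8% of all genes. The count of genes that rose was 1 without monoculture replicate 1 (0.365% of all genes), 3 without monoculture replicate 3 (0.431%), 0 without conditioned medium replicate 1 (0.335%), 1 without its replicate 2 (0.389%) and 2 without its replicate 3 (0.359%). PSMB9 was lost only without conditioned medium replicate 1 (adjusted p = 0.052), and IFIT3, IFITM1, IFITM3 and ISG20 were each lost in at least 4 of the 6 fits.

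The direct comparison of contact culture with conditioned medium does not use the monoculture libraries, although they share in the estimate of the spread. IFIT3, OAS1, MX1, XAF1 and SAMD9 were lower in contact culture and no gene of the family was higher, beside 0.162% and 0.210% of all genes (0.371% in both directions). Unadjusted p-values under 0.05 were found for 19 genes lower and 1 higher, ISG20, against 5.01% and 7.24% of all genes. The estimate was negative for 39 of 44 genes, with a median log2 difference of -0.67, against 0.00 over all genes. Contact culture lay wholly below conditioned medium in 28 genes and wholly above it in 1, where 9.93% and 12.4% of all genes did so. All 5 calls were near the threshold. The family had 1 gene lower without contact culture replicate 2 (0.108% of all genes) and 1 without contact culture replicate 3 (0.0419%), and none without contact culture replicate 1 or any 1 of the conditioned medium libraries (0.024% to 0.0659%). A fit of these 6 libraries alone called 9 genes lower and none higher, beside 0.228% and 0.353% of all genes, and MX1 did not pass in it (adjusted p = 0.0572).

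**Figure D3:**
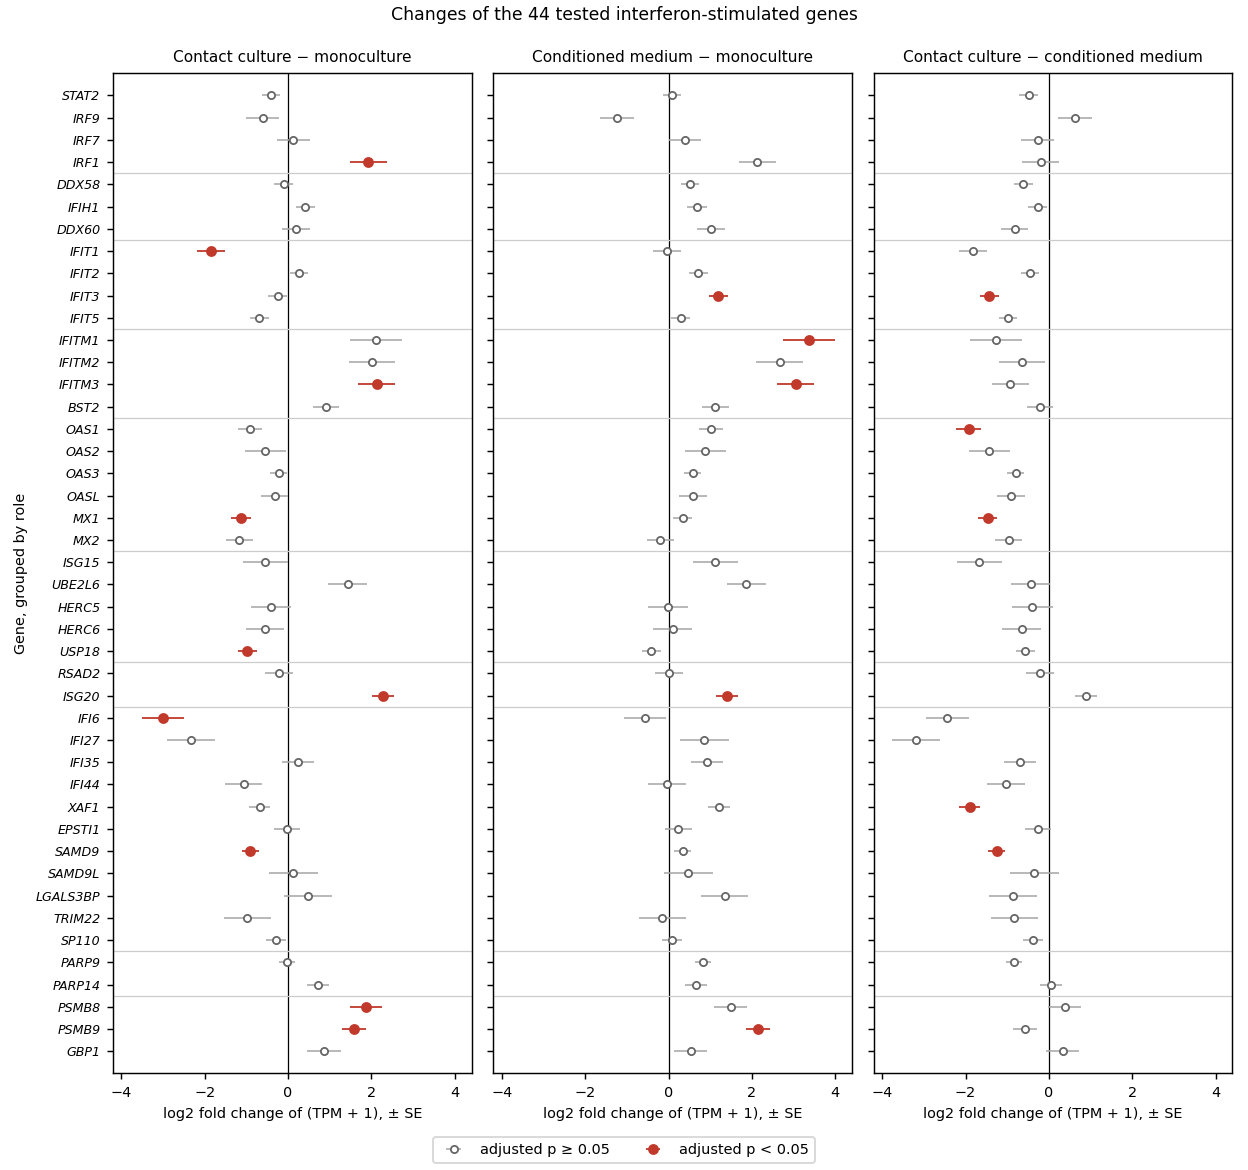
Log2 fold change of TPM + 1, with its standard error from limma, for the 44 tested genes in contact culture against monoculture, conditioned medium against monoculture and contact culture against conditioned medium. Filled points passed an adjusted p of 0.05. They number 5 right and 5 left of 0 in the first panel, 5 right of 0 in the second and 5 left of 0 in the third.

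Set against all 6 libraries of the other groups at once, as a description with no test, the genes fell into a few patterns. Contact culture was lowest, with no overlap, in IFIT1, IFIT5, OAS1, MX1, MX2, USP18, IFI6, IFI27 and SAMD9 (9 genes, against 4.92% of all genes). Conditioned medium was highest in DDX60, IFIT2, IFIT3, IFITM1, IFITM2, IFITM3, OAS1, OAS3, UBE2L6, XAF1, SAMD9 and PARP9 (12 genes, against 1.53%). Monoculture was lowest in IRF1, IFITM2, IFITM3, BST2, ISG20, PSMB8 and PSMB9 (7 genes, against 3.11%) and highest in none (7.89%). ISG20 was the only gene of the family with contact culture on top (4.34%).

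Among the transcription factors, IRF1, which activates both interferon targets and antigen-presentation genes, measured 3.61, 1.88 and 10.4 TPM in monoculture, 16.5, 23.4 and 18.5 in contact culture and 23.4, 28.5 and 16.4 in conditioned medium. Every library grown with HS5 cells or their medium was above every monoculture library. Its log2 fold change was 1.93 ± 0.44 (SE) in contact culture (adjusted p = 0.0399) and 2.13 ± 0.44 in conditioned medium (adjusted p = 0.0585). The subunits of the ISRE-binding factor behaved otherwise. STAT2 measured 9.28, 13.1 and 9.49 TPM in monoculture, 9.32, 5.66 and 8.53 in contact culture and 12.3, 9.88 and 11.5 in conditioned medium, with overlap between monoculture and both other groups. IRF9 was low, at 0.627 to 3.68 TPM in monoculture, 0.272 to 1.21 TPM in contact culture and 0 to 0.546 TPM in conditioned medium, and its difference of -1.23 ± 0.40 in conditioned medium did not pass (adjusted p = 0.188). IRF7, which drives interferon genes themselves, lay between 1.40 and 6.62 TPM with overlap between all groups.

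The RNA sensors gave no call. IFIH1 (MDA5), a sensor of long double-stranded RNA and the most abundant of the 3, measured 3.19, 3.22 and 4.69 TPM in monoculture, 3.94, 6.86 and 5.12 in contact culture and 7.45, 6.40 and 5.70 in conditioned medium. Conditioned medium lay above monoculture without overlap, but the log2 difference of 0.68 ± 0.23 did not pass (adjusted p = 0.199). DDX58 (RIG-I) and DDX60, which helps it, measured 2.53 to 6.09 TPM and 1.26 to 7.69 TPM over the 9 libraries.

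IFIT proteins bind foreign RNA and block its translation. IFIT1 measured 5.98, 17.7 and 7.13 TPM in monoculture, 1.69, 2.18 and 1.62 in contact culture and 8.91, 8.02 and 9.88 in conditioned medium. The contact culture libraries were all below the others, by a log2 fold change of -1.86 ± 0.34 against monoculture (adjusted p = 0.0172) and -1.81 ± 0.34 against conditioned medium (adjusted p = 0.069). The difference of conditioned medium from monoculture was -0.04 ± 0.34 (adjusted p = 0.967), and its sign turned under other scalings.

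IFIT3, which pairs with IFIT1 in a complex, had another profile. It measured 2.08, 2.99 and 1.76 TPM in monoculture, 2.06, 1.62 and 1.51 in contact culture and 7.67, 6.54 and 5.12 in conditioned medium. It rose in conditioned medium by 1.19 ± 0.23 (adjusted p = 0.0422). Contact culture was below conditioned medium by a log2 difference of -1.44 ± 0.23 (adjusted p = 0.0387), while contact culture and monoculture overlapped. IFIT2 and IFIT5 spanned 0.920 to 3.23 TPM and 1.84 to 6.22 TPM, and both lay lower in every contact culture library than in every conditioned medium library, with no call.

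The IFITM proteins, which sit in membranes and hinder the entry of enveloped viruses, and tetherin (BST2), which holds budding virions at the cell surface, had positive estimates in both cultures. IFITM2 measured 34.4, 183 and 31.7 TPM in monoculture, 308, 210 and 215 in contact culture and 379, 367 and 389 in conditioned medium. Its groups did not overlap, but the spread set by monoculture replicate 2 left log2 fold changes of 2.01 ± 0.56 and 2.67 ± 0.56 short of the threshold (adjusted p = 0.0753 and 0.0588). Without that library these were 2.83 (adjusted p = 0.000137) in contact culture and 3.48 (adjusted p = 7.2e-05) in conditioned medium.

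IFITM3 measured 10.3, 32.1 and 7.13 TPM in monoculture, 80.4, 45.9 and 65.5 in contact culture and 117, 121 and 119 in conditioned medium. The groups stood apart in this order, and the gene rose by 2.13 ± 0.45 in contact culture (adjusted p = 0.0293) and by 3.05 ± 0.45 in conditioned medium (adjusted p = 0.0131). IFITM1 measured 0.529, 5.76 and 2.18 TPM in monoculture, 20.9, 4.51 and 20.7 in contact culture and 25.7, 31.6 and 40.8 in conditioned medium. Contact culture replicate 2 fell inside the monoculture range, and IFITM1 rose in conditioned medium alone by the test, by 3.37 ± 0.62 (adjusted p = 0.0375), against 2.11 ± 0.62 in contact culture (adjusted p = 0.0935), and the difference between these cultures, -1.26 ± 0.62, did not pass (adjusted p = 0.461). IFITM2 and IFITM3 are close paralogs and IFITM1 is a more distant one, and how reads shared between such copies were divided is not given in the sources used here, so the separate levels of IFITM2 and IFITM3 are uncertain. BST2, at 46.8 to 63.0 TPM in monoculture, 86.7 to 112 TPM in contact culture and 68.6 to 185 TPM in conditioned medium, lay above monoculture in every library, with no call.

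OAS1, OAS2 and OAS3 make the second messenger that switches on RNase L, OASL is a related protein without that activity, and the MX proteins are dynamin-like GTPases that trap viral nucleocapsids. All 6 of these genes lay lower in every contact culture library than in every conditioned medium library. MX1 measured 25.7, 33.5 and 26.4 TPM in monoculture, 10.6, 17.5 and 10.3 in contact culture and 43.6, 32.7 and 33.2 in conditioned medium. It fell in contact culture by 1.13 on the log2 scale against monoculture (SE 0.23, adjusted p = 0.0267), was lower there than in conditioned medium by a log2 difference of -1.47 ± 0.23 (adjusted p = 0.0387), and overlapped between conditioned medium and monoculture.

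OAS1 measured 7.97, 17.8 and 7.54 TPM in monoculture, 4.35, 6.06 and 4.69 in contact culture and 20.4, 23.2 and 21.9 in conditioned medium. Monoculture lay between the other groups without overlap, and the log2 difference of contact culture from conditioned medium was -1.93 ± 0.29 (adjusted p = 0.0363), while neither culture passed against monoculture (adjusted p = 0.117 and 0.144). OAS2, OAS3 and OASL had log2 differences of -1.43 ± 0.49, -0.80 ± 0.20 and -0.92 ± 0.33 between contact culture and conditioned medium, with no call. MX2, chosen after its values were seen, measured 2.59 to 6.34 TPM in monoculture, 1.00 to 1.36 TPM in contact culture and 1.93 to 4.26 TPM in conditioned medium (adjusted p = 0.0749 against monoculture).

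ISG15 is a ubiquitin-like protein, UBE2L6 is the enzyme that carries it, HERC5 ligates it to targets, and USP18 removes it and also blunts signaling at the interferon receptor. UBE2L6, the most abundant of these, measured 9.87, 42.8 and 9.96 TPM in monoculture, 52.4, 35.4 and 51.6 in contact culture and 61.3, 61.0 and 64.6 in conditioned medium. Monoculture replicate 2 lay among the contact culture libraries, and the log2 fold changes of 1.43 ± 0.47 and 1.87 ± 0.47 did not pass (adjusted p = 0.126 and 0.102), where without that library they were 2.10 (adjusted p = 0.000718) and 2.54 (adjusted p = 0.000396).

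USP18 measured 4.33, 7.08 and 6.28 TPM in monoculture, 2.41, 2.74 and 2.21 in contact culture and 4.22, 3.17 and 5.09 in conditioned medium. It fell in contact culture by 0.98 on the log2 scale (SE 0.23, adjusted p = 0.0432), a call that was lost whenever 1 of the 6 libraries compared was left out, with adjusted p-values up to 0.163. ISG15 itself, chosen after its values were seen, measured 8.45, 39.6 and 6.22 TPM in monoculture, 11.1, 6.96 and 8.14 in contact culture and 27.1, 30.9 and 31.0 in conditioned medium. Leaving out monoculture replicate 2 gave it a log2 fold change of 1.89 in conditioned medium (adjusted p = 0.00379) and 0.21 in contact culture (adjusted p = 0.584), and with that library neither passed (adjusted p = 0.354 and 0.629). HERC5 ranged from 3.44 to 13.9 TPM and HERC6 from 0.310 to 4.07 TPM, the highest value of HERC6 being in monoculture replicate 2.

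ISG20, a 3′ to 5′ exonuclease that degrades viral RNA, gave the firmest difference of the family. It measured 2.04, 3.46 and 2.85 TPM in monoculture, 19.3, 13.2 and 19.5 in contact culture and 8.86, 6.36 and 12.0 in conditioned medium. The 3 groups did not overlap, and the gene rose by 2.27 ± 0.26 in contact culture (adjusted p = 0.00198) and by 1.39 ± 0.26 in conditioned medium (adjusted p = 0.0411). The rise in contact culture was the only call in the family that held in all 6 fits without 1 library (adjusted p up to 0.0160) and in all 10 other settings. The log2 difference of contact culture from conditioned medium, 0.88 ± 0.26, did not pass (adjusted p = 0.219). RSAD2 (viperin), which makes a chain-terminating nucleotide, stayed at 0 to 1.45 TPM.

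**Figure D4:**
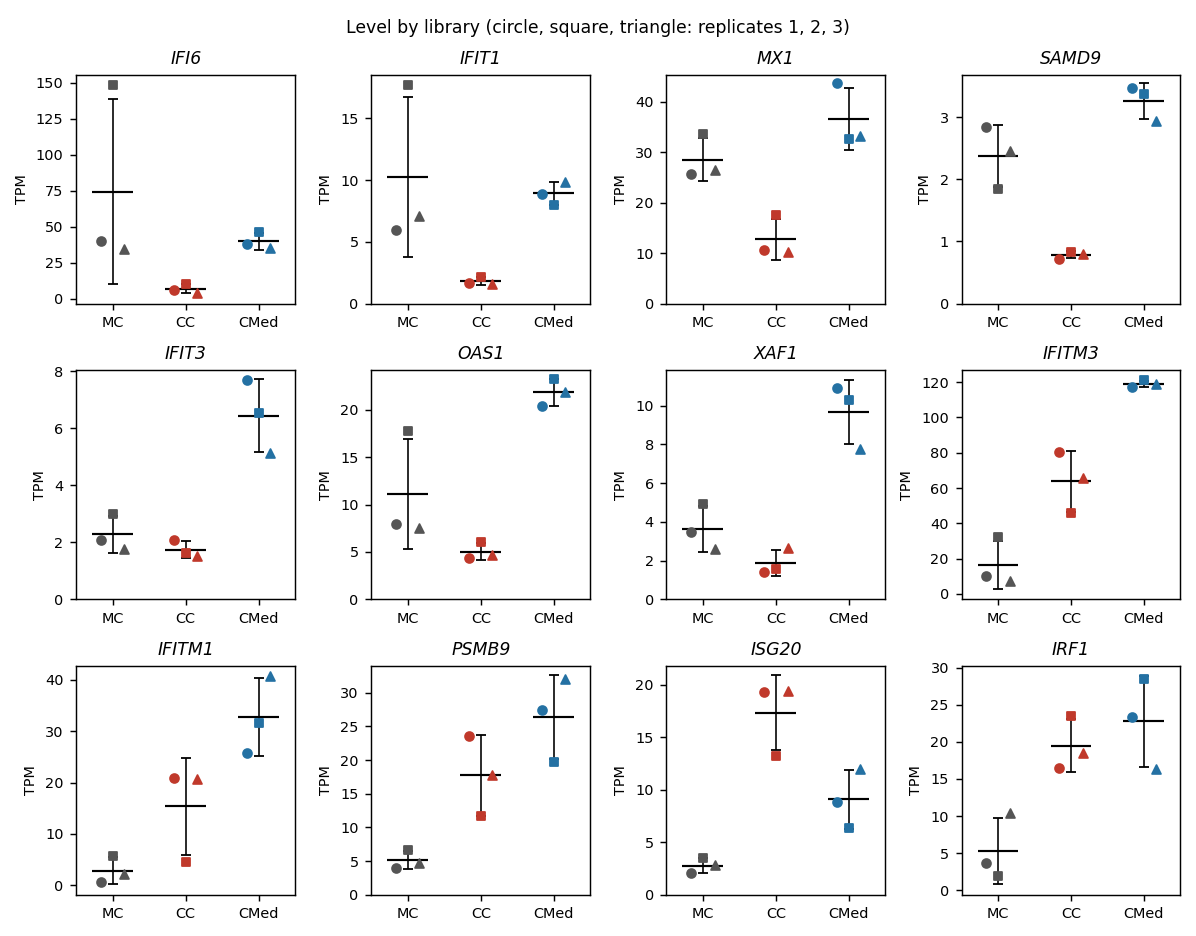
TPM of selected genes in each library, with 1 point per library and a bar at the mean of each group of 3, for monoculture (MC), contact culture (CC) and conditioned medium (CMed). ISG20 separates the 3 groups with contact culture on top, IFITM3 separates them with conditioned medium on top, and IFI6 is lowest in contact culture at 4.22 to 10.4 TPM.

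The largest fall against monoculture was that of IFI6, a small membrane protein that limits cell death and viral replication. IFI6 measured 39.8, 148 and 34.5 TPM in monoculture, 6.0, 10.4 and 4.22 in contact culture and 38.1, 46.3 and 34.9 in conditioned medium. Contact culture was far below both other groups, which overlapped, and the log2 fold change was -3.01 ± 0.51 against monoculture (adjusted p = 0.0125) and -2.44 ± 0.51 against conditioned medium (adjusted p = 0.1). Without monoculture replicate 2, the difference from monoculture was -2.35 (adjusted p = 0.00412), and without contact culture replicate 3 the adjusted p was 0.0638. IFI27, a mitochondrial protein from a gene related to IFI6 and chosen after its values were seen, measured 10.2, 53.1 and 10.3 TPM in monoculture, 2.59, 5.32 and 1.39 in contact culture and 29.7, 36.6 and 34.8 in conditioned medium. Contact culture was lowest here too, with adjusted p-values of 0.0539 against monoculture and 0.0688 against conditioned medium.

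SAMD9, a translation-inhibiting restriction factor, measured 2.83, 1.84 and 2.45 TPM in monoculture, 0.726, 0.837 and 0.795 in contact culture and 3.46, 3.38 and 2.93 in conditioned medium. It fell in contact culture by 0.91 on the log2 scale against monoculture (SE 0.20, adjusted p = 0.0369), and it was lower there than in conditioned medium by a log2 difference of -1.25 ± 0.20 (adjusted p = 0.0446). XAF1, which binds the caspase inhibitor XIAP and favours apoptosis, measured 3.45, 4.92 and 2.58 TPM in monoculture, 1.42, 1.59 and 2.63 in contact culture and 10.9, 10.3 and 7.77 in conditioned medium. Its contact culture values were lower than those of conditioned medium by a log2 difference of -1.90 ± 0.26 (adjusted p = 0.0225), its rise in conditioned medium of 1.22 ± 0.26 missed the threshold (adjusted p = 0.0617), and contact culture overlapped with monoculture.

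LGALS3BP, a secreted glycoprotein that binds galectin-3, measured 2.76, 18.8 and 2.58 TPM in monoculture, 11.0, 6.58 and 6.93 in contact culture and 15.2, 15.4 and 15.4 in conditioned medium, and was chosen after its values were seen. The single high monoculture value was that of replicate 2. SP110, a nuclear body protein, spanned 18.4 to 37.2 TPM with no call. IFI35, IFI44, EPSTI1, SAMD9L and TRIM22 stayed between 0 and 5.75 TPM in every library, and none of them passed in any comparison.

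PARP14, an ADP-ribosyltransferase, was the more abundant of the PARP pair, at 13.9, 24.1 and 15.8 TPM in monoculture, 24.4, 37.2 and 27.6 in contact culture and 28.8, 35.2 and 22.1 in conditioned medium. Contact culture lay above monoculture without overlap, by a log2 difference of 0.71 ± 0.26 that did not pass (adjusted p = 0.162). PARP9, its partner, measured 11.6 to 18.5 TPM in monoculture, 13.7 to 15.9 TPM in contact culture and 25.2 to 30.8 TPM in conditioned medium (adjusted p = 0.0817 for conditioned medium against monoculture).

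PSMB8 and PSMB9 encode immunoproteasome subunits, which change the peptides that reach class I molecules. PSMB9 measured 4.03, 6.63 and 4.73 TPM in monoculture, 23.6, 11.7 and 17.8 in contact culture and 27.4, 19.6 and 32.0 in conditioned medium. Both cultures lay above monoculture, by 1.58 ± 0.29 (adjusted p = 0.0172) and 2.15 ± 0.29 (adjusted p = 0.00879). PSMB8 measured 3.09, 8.5 and 3.57 TPM in monoculture, 29.4, 11.2 and 22.4 in contact culture and 12.6, 14.7 and 17.3 in conditioned medium. It rose in contact culture by 1.87 ± 0.39 (adjusted p = 0.0296), and its difference of 1.49 ± 0.39 in conditioned medium, also without overlap, did not pass (adjusted p = 0.116). The table holds 4 rows for PSMB8 and 5 for PSMB9, which were summed. With only the largest row of each symbol, PSMB9 no longer passed in contact culture. GBP1, a guanylate-binding GTPase, ranged from 1.69 to 9.22 TPM with overlap between all groups.

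The ligands of the pathway were close to absent from these libraries. Of 20 type I and III interferon genes listed, 2 were in the table, IFNW1 at 0 to 0.481 TPM and IFNL1 at 0 outside contact culture, where it reached 1.2 and 0.417 TPM in replicates 1 and 3. IFNG, the type II interferon, was at 0 in all libraries but contact culture replicate 3 (0.13 TPM). Interferons in the HS5 cells were not analysed here.

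The receptors were present. IFNAR1 measured 10.6 to 11.2 TPM in monoculture, 8.45 to 9.36 TPM in contact culture and 7.95 to 9.27 TPM in conditioned medium, and IFNAR2 measured 1.11 to 4.06 TPM over all libraries. IFNGR1 and IFNLR1, the ligand-binding chains for interferon-gamma and interferon-lambda, ranged from 0.636 to 2.53 TPM and from 0.190 to 1.25 TPM. IFNGR2, the partner chain of IFNGR1, lay higher in contact culture (16.4 to 27.9 TPM) than in monoculture (10.9 to 13.6 TPM) with an adjusted p of 0.061. IL10RB, which interferon-lambda and interleukin-10 receptors share, fell in contact culture by 0.99 on the log2 scale (SE 0.23, adjusted p = 0.0393), from 9.84, 18.2 and 11.7 TPM to 5.41, 6.77 and 5.73 TPM.

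Of 56 other genes listed for the interferon pathway, 36 were in the table and 26 were tested. In contact culture against monoculture, 1 rose and 2 fell (2.15% and 2.84% of all genes), and in the other comparisons none passed. Unadjusted p-values under 0.05 were found for 4 higher and 5 lower in contact culture against monoculture (7.94% and 12.3% of all genes), 4 higher and 1 lower in conditioned medium against monoculture (5.27% and 10.4%), and 2 higher and 6 lower in contact culture against conditioned medium (7.24% and 5.01%). IFI16, a sensor of DNA, measured 0, 0 and 0.539 TPM in monoculture, 2.88, 4.21 and 4.30 in contact culture and 1.03, 0.550 and 0.676 in conditioned medium, and rose in contact culture by 2.04 ± 0.26 (adjusted p = 0.00314). IFI16 passed the filter on low values through contact culture and conditioned medium, not through monoculture, which favoured a rise. EIF2AK2 (PKR), the kinase that halts translation on double-stranded RNA, fell beside IL10RB, from 26.2, 29.1 and 21.3 TPM in monoculture to 11.7, 14.98 and 13.2 TPM in contact culture, by 0.89 on the log2 scale (SE 0.20, adjusted p = 0.0398).

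Genes that respond more to interferon-gamma were set beside the family. The list was chosen with earlier results of these data known, so its counts beside those of all genes are a description. CXCL10, CXCL11, GBP5, IDO1, SOCS1 and CD274 were in the table but not tested, at 0.786 TPM or less in every library. Of 16 listed, 14 were in the table and 8 were tested, of which 5 rose in contact culture (GBP2, ICAM1, APOL6, GBP4 and WARS), where 2.15% of all genes did, and 4 in conditioned medium (the same without WARS), where 0.707% did. None fell in either comparison, and by unadjusted p-values under 0.05 there were 6 higher and 0 lower in each. Of all genes, 7.94% were higher and 12.3% lower by that measure in contact culture, and 5.27% and 10.4% in conditioned medium. None passed between contact culture and conditioned medium, where 1 was higher at an unadjusted p under 0.05 (7.24% of all genes). Some of these genes are also targets of NF-kB. GBP2, a guanylate-binding GTPase, measured 9.34, 6.17 and 4.58 TPM in monoculture, 75.9, 126 and 86.4 in contact culture and 54.3, 66.7 and 32.5 in conditioned medium. Both cultures were far above monoculture, by 3.67 ± 0.32 (adjusted p = 0.000425) and 2.75 ± 0.32 (adjusted p = 0.00452). ICAM1, an adhesion receptor for leukocytes, rose from 0.109 to 0.516 TPM in monoculture to 4.56 to 7.98 TPM in contact culture and 3.91 to 4.82 TPM in conditioned medium, with log2 fold changes of 2.47 ± 0.24 and 2.01 ± 0.24 (adjusted p = 0.000762 and 0.00519). ICAM1 passed the filter on low values through the cultures where it is high, not through monoculture, which favoured a rise.

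The other 3 genes of this list were called as follows. APOL6, a cytoplasmic apolipoprotein L, rose by 1.48 ± 0.21 in contact culture and 1.71 ± 0.21 in conditioned medium (adjusted p = 0.00584 and 0.00611). GBP4 rose by 1.76 ± 0.28 and 2.28 ± 0.28 (adjusted p = 0.00988 and 0.00611). WARS, the cytosolic tryptophanyl-tRNA synthetase, rose in contact culture by 1.63 ± 0.32 (adjusted p = 0.0225), and its difference of 0.99 ± 0.32 in conditioned medium did not pass (adjusted p = 0.184). The calls of GBP2, ICAM1, APOL6, GBP4 and IFI16 held without any 1 library, whereas WARS and IL10RB were each lost in 4 of the 6 fits and EIF2AK2 in all 6 (adjusted p up to 0.142). CXCL10 and CXCL11, chemokines that interferon-gamma induces, were listed at 0 in every library but contact culture replicate 1.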

How the data were processed

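Total RNA of 9 T47D libraries (3 each of MC, CC and CMed) was prepared as stranded libraries and read as paired ends of 100 bp. Reads were trimmed with Trim Galore 0.5.0 and aligned with STAR 2.6.0, as named in the submitters' processing notes. The genome build, the annotation and the program behind the values per gene were not given in the sources used here. The authors deposited the natural log of TPM plus 1 for each gene symbol, a reading of the log base that was settled from the library sums (884208 to 909618 on this scale, 120543 to 127236 if read as log2). Because the table holds no read counts, no counting error can be set on single values.

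Values were returned to TPM. Of 28624 rows, 160 named by RNA families (0.0295% to 0.0770% of a library) were dropped, and several rows of 1 symbol (481 symbols) were summed, among them those of IRF7, IFI27, PSMB8 and PSMB9. Genes with at least 0.5 TPM in at least 3 libraries (16696) were tested on log2(TPM + 1) by limma 3.58.1 under R 4.3.3 (all 9 libraries in 1 fit with a coefficient for each group, intensity trend, robust empirical Bayes), 2-sided, with Benjamini-Hochberg adjustment over all genes tested and a threshold of 0.05. Fold changes on this scale understate changes of genes with low levels. A group does not overlap another where its 3 libraries all lie on one side of the other's.

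The genes and lists were chosen with earlier results of these data known. Named with every library are genes past the threshold in at least 1 comparison and the most abundant gene of each role, and of the other lists the genes past the threshold and the receptors. STAT2, ISG15, IFI27 and LGALS3BP are also given with every library, outside this rule. The fit was also tried on simulated data, with no outcome given here, so nothing above rests on it. Alternatives were pseudocounts of 0.1 and 5, 2 other scalings, filters set to none or to 1 TPM, fits of the 2 groups alone, a block for replicate number, the largest row of a symbol, TPM without mitochondrial and ribosomal RNA, and each library left out in turn. The other steps used numpy 2.4.6, pandas 2.3.3 and matplotlib 3.10.9 in Python 3.11.15.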

Additional observations from a re-analysis of the deposited data

Results flagged for a closer look

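For 5 genes the change in contact culture differed from the change in conditioned medium by the limma test of that difference, each being lower in contact culture: by -1.44 for IFIT3, -1.93 for OAS1, -1.47 for MX1, -1.90 for XAF1 and -1.25 for SAMD9 on the log2 scale. In each of these genes the 3 contact culture libraries lay below the 3 conditioned medium libraries. With each of the 6 libraries left out in turn, none of the calls held in more than 1 fit, and adjusted p-values reached 0.156 to 0.218. Groups of 3 libraries are too small for the test of single outlying samples.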

How the results depend on the processing

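The counts of called interferon-stimulated genes changed under several of the settings. Contact culture had 5 genes higher and 5 lower than monoculture. With a pseudocount of 5, 3 were lower (2.76% of all genes), as under relative log expression (1.79%) or upper quartile scaling (2.04%). With no filter 2 were higher and 2 lower, and with only the 2 groups compared 1 was higher and 0 lower. Of the 5 higher in conditioned medium, 2 were called with no filter and 1 with only the 2 groups compared. Of the 5 that were below conditioned medium in contact culture, 0 were called with no filter (0.0362% of all genes). Without mitochondrial and ribosomal RNA 1 was called (0.0686%), and with only the 2 groups compared 9 genes were called (0.228%). Calls over all genes moved as well, to 0.894% higher and 0.988% lower with no filter and 1.03% and 0.88% with only the 2 groups compared in contact culture, and to 0.271% and 0.455% higher in conditioned medium. Fits that leave out 1 library called 1 to 10 higher and 0 to 5 lower in contact culture (0.833% to 4.34% and 0.629% to 6.0% of all genes). They called 0 to 16 higher in conditioned medium (0.335% to 2.29%) and 0 to 1 lower in contact culture against conditioned medium (0.024% to 0.108%).

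Replicate numbers are shared between groups, but same-numbered libraries did not deviate together (correlations of -0.042 to 0.109 over 9 pairs, and -0.119 to 0.138 for other pairs), so the numbers were not taken as pairs. With the replicate number as a block, 2 genes were higher (1.44% of all genes) and 4 lower (1.61%) in contact culture, 2 were higher in conditioned medium (0.437%), and 0 were lower in contact culture against conditioned medium (0.0419%).

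Over the named genes past the threshold, 96 of 192 results without 1 library and 252 of 320 under the other settings stayed past it, the rest kept their direction, and none turned. Directions turned only for values that had not passed. For IFIT1 in conditioned medium the log2 change was 0.0857 under relative log expression scaling, 0.0241 under upper quartile scaling and 0.0125 without mitochondrial and ribosomal RNA, and -0.32 to 0.40 without 1 library. IFNAR2 in contact culture was at 0.00803 with relative log expression scaling and at -0.28 to 0.10 without 1 library, and IFNGR1 in contact culture against conditioned medium was at 0.0128 without mitochondrial and ribosomal RNA and at -0.20 to 0.23 without 1 library. Leaving out 1 library also gave -0.947 to 0.0895 for IFI6, -0.41 to 0.00556 for IL10RB and -0.15 to 0.28 for IFNLR1 in conditioned medium, -0.0383 to 0.21 for IFNLR1 in contact culture, and -0.12 to 0.20 for PARP14, -0.0348 to 0.0645 for IFNAR1 and -0.22 to 0.21 for IFNLR1 in contact culture against conditioned medium.

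Counts of genes whose groups do not overlap were recomputed under settings chosen after seeing the data. Under other scalings, filters, rows and totals they were 8 to 10 higher and 9 lower in contact culture, 19 to 21 higher and 1 lower in conditioned medium, and 28 lower and 1 higher between them, while the shares of all genes ran over 6.7% to 12.1% and 10.2% to 16.5%, 4.91% to 9.58% and 8.92% to 15.7%, and 7.01% to 10.6% and 8.59% to 13.9%, in the same order. The causes of these shifts were not tested. With 3 libraries in a group, no read counts and levels under 5 TPM for 22 of the 44 genes in monoculture, smaller differences were not detectable here.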
